A study of Mus musculus with 15 samples.

Results

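The capture of 9 gene loci by 3 distant baits was examined by 4C-seq, which ligates and sequences DNA found near a chosen bait in the nucleus. The genes are Col1a1, Col3a1, Fn1, Pdgfra, Acta2, Sparc, Postn, Vim and Lox, all known for roles in fibroblasts and extracellular matrix. A locus was taken as every HindIII site within 500 kb of the gene's mm9 position, which gave 2818 of the 823355 sites in the files. The baits lay at the genes Pparg on chromosome 6, Lpin1 on chromosome 12 and Ifng on chromosome 10, so none of the 9 loci shared a chromosome with a bait.

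The study followed 3T3-L1 cells, a mouse preadipocyte line of fibroblast type, as they differentiated into adipocytes, and set them beside a B lymphocyte cell line. Day 0 cells had been confluent for 2 days. They were then given dexamethasone, 3-isobutyl-1-methylxanthine, insulin and FCS, were fed insulin and FCS at day 2, and were kept in FCS alone afterwards. Samples of days 0, 1, 2 and 6 each had 2 libraries per bait, and the B cell line had 1 library per bait, which made 15 samples and 27 libraries. The 2 libraries of a day are numbered 1 and 2 as in the deposited data. All cells were fixed with formaldehyde before digestion with HindIII and DpnII. The labels do not say whether the libraries of a day came from separate cultures, so a p-value here measures only the spread between libraries. Each line stands for 1 cell type grown in culture, and no expression was measured in these samples, so neither cell type was checked against marker genes.

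Fibrillar collagens form the tension-bearing fibres of connective tissue, and fibronectin is laid down as a network on which cells and collagen assemble. Secreted proteins such as SPARC and periostin tune that matrix, and lysyl oxidase cross-links collagen and elastin. Preadipocytes resemble fibroblasts and express many of these genes, and adipocyte differentiation is known to remodel the matrix around the cell. A contact in a 4C experiment records proximity of DNA, not the activity of a gene.

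A site was called captured when it held at least 1 read. Relative capture is the captured share of a locus divided by that of all sites on autosomes other than the bait's chromosome. Libraries held 116031 to 3002206 reads. They captured 0.443 to 5.18% of those autosomal sites with the Pparg bait, 0.462 to 3.96% with the Lpin1 bait and 2.14 to 7.72% with the Ifng bait. Some libraries stood apart in which sites they captured. The Lpin1 day 1 and day 2 libraries numbered 2 shared 51.8% of the smaller library's captured sites, against 7.11 to 38.0% for the other Lpin1 pairs. The Pparg libraries numbered 2 and the Pparg B cell library shared sites 8.56 to 21.1 times as often as the product of their captured shares, against 1.66 to 3.18 times between any of them and the Pparg libraries numbered 1. The part of this sharing in the results was not tested. The comparisons with flanks, between baits and with B cells were also made without the Pparg libraries numbered 2, and those of the Lpin1 bait and between baits without the Lpin1 pair. Without the libraries numbered 2, there is 1 Pparg library a day, and days were not compared.

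The Col1a1 locus encodes the main chain of type I collagen. It covered chromosome 11, 94300001 to 95300000, with Sgca, Hils1 and Gm11544 among its nearest genes. It held 208 HindIII sites, fewer than nearly all 1 Mb windows of the genome (percentile 0.560). With the Pparg bait its relative capture ran from 0 through a median of 3.00 to 4.58 over the 8 3T3-L1 libraries, with a mean of 2.72 ± 1.53 (SD, n = 8). With the Lpin1 bait it ran from 1.11 through 1.90 to 4.17, with a mean of 2.22 ± 1.11 (SD, n = 8). With the Ifng bait it ran from 0.196 through 0.398 to 0.651, with a mean of 0.390 ± 0.143 (SD, n = 8). Every Lpin1 library lay above 1, and every Ifng library lay below 1 and below the lowest Lpin1 value. The single Pparg library under 1 was a day 6 library with 0 of 208 sites captured, which at a limit of 3 sites for a count of 0 allows a share of up to 1.44%, or a relative capture of up to 3.26 (3.97 by the exact binomial 95% limit), so it was too shallow to place the locus. Set against the other 1 Mb windows, the mean stood at percentile 94.5 for Pparg, 95.2 for Lpin1 and 7.81 for Ifng. Chromosome 11 as a whole had a relative capture of 1.25, 1.19 and 0.848 with these baits.

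The Col3a1 locus encodes type III collagen and lies on chromosome 1, 44870001 to 45870000, next to another fibrillar collagen gene, Col5a2. Its relative capture with the Pparg bait was 0 at the lowest, 1.19 at the median and 2.67 at the highest, and the mean was 1.18 ± 0.778 (SD, n = 8). For the Lpin1 bait the lowest, median and highest were 0.342, 1.13 and 2.02, and the mean was 1.19 ± 0.592 (SD, n = 8). For the Ifng bait they were 0, 0.245 and 0.363, and the mean was 0.205 ± 0.123 (SD, n = 8). Only 27 captured sites were counted there over the 8 Ifng libraries, and the mean, the lowest of the 9 loci, stood at percentile 1.83 of windows. The Ifng values overlapped with those of the other baits through 1 Pparg library at 0 and 1 Lpin1 library at 0.342. That Pparg library, of day 2, had 0 of 321 sites captured, which allows a share of up to 0.935%.

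Fn1, the fibronectin gene, was taken as chromosome 1, 71130001 to 72130000, with Abca12, Atic, Mreg and Pecr nearby. Mean relative capture was 1.21 ± 0.458 (SD, n = 8) with the Pparg bait, 0.994 ± 0.339 (SD, n = 8) with the Lpin1 bait and 0.795 ± 0.153 (SD, n = 8) with the Ifng bait. The medians were 1.26, 0.973 and 0.797. The ranges were 0.5259 to 1.83, 0.578 to 1.64 and 0.587 to 1.04, and they overlapped. The locus held 375 sites, more than most windows (percentile 96.8).

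Pdgfra encodes the alpha receptor for platelet-derived growth factor, a mitogen of fibroblasts and preadipocytes. Its locus, chromosome 5, 75050001 to 76050000, lies beside the receptor kinase genes Kit and Kdr. With the Pparg bait the values ran from 0.673 through 2.44 to 3.85, with a mean of 2.25 ± 0.992 (SD, n = 8) at percentile 89.9 of windows. The mean was 1.39 ± 0.723 (SD, n = 8) with the Lpin1 bait and 1.16 ± 0.501 (SD, n = 8) with the Ifng bait. Of the 8 Pparg libraries, 7 lay above 1, against 6 for Lpin1 and 4 for Ifng.

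The cytoskeletal genes of the list are Acta2 and Vim. Acta2, the smooth muscle actin of contractile fibroblasts, lies on chromosome 19, 33810001 to 34810000, beside Fas and Ch25h. Its mean relative capture was 0.960 ± 0.592 (SD, n = 8) with Pparg, 1.26 ± 0.589 (SD, n = 8) with Lpin1 and 0.653 ± 0.133 (SD, n = 8) with Ifng. Chromosome 19 as a whole stood at 1.51, 1.84 and 1.18, so the locus lay below its own chromosome with each bait. Vim, the intermediate filament protein of mesenchymal cells, lies on chromosome 2, 13000001 to 14000000. Its means were 0.733 ± 0.425, 0.934 ± 0.550 and 0.471 ± 0.201 (SD, n = 8 each) in the same order of baits.

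Among the matricellular genes, Sparc (chromosome 11, 54710001 to 55710000) encodes a collagen-binding secreted protein. Its means were 1.20 ± 0.373, 1.35 ± 0.659 and 0.985 ± 0.287 (SD, n = 8 each) with Pparg, Lpin1 and Ifng. Postn (chromosome 3, 53670001 to 54670000) encodes periostin. With the Pparg bait it ran from 1.15 through 1.52 to 3.19 with a mean of 1.73 ± 0.680 (SD, n = 8), and all 8 libraries lay above 1. Its means with Lpin1 and Ifng were 1.09 ± 0.649 and 0.556 ± 0.140 (SD, n = 8 each). Lox, the collagen cross-linking enzyme, was taken as chromosome 18, 52180001 to 53180000. Its means were 0.600 ± 0.353, 1.16 ± 0.353 and 0.989 ± 0.156 (SD, n = 8 each), so with the Pparg bait it was the lowest of the 9.

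**Figure D1:**
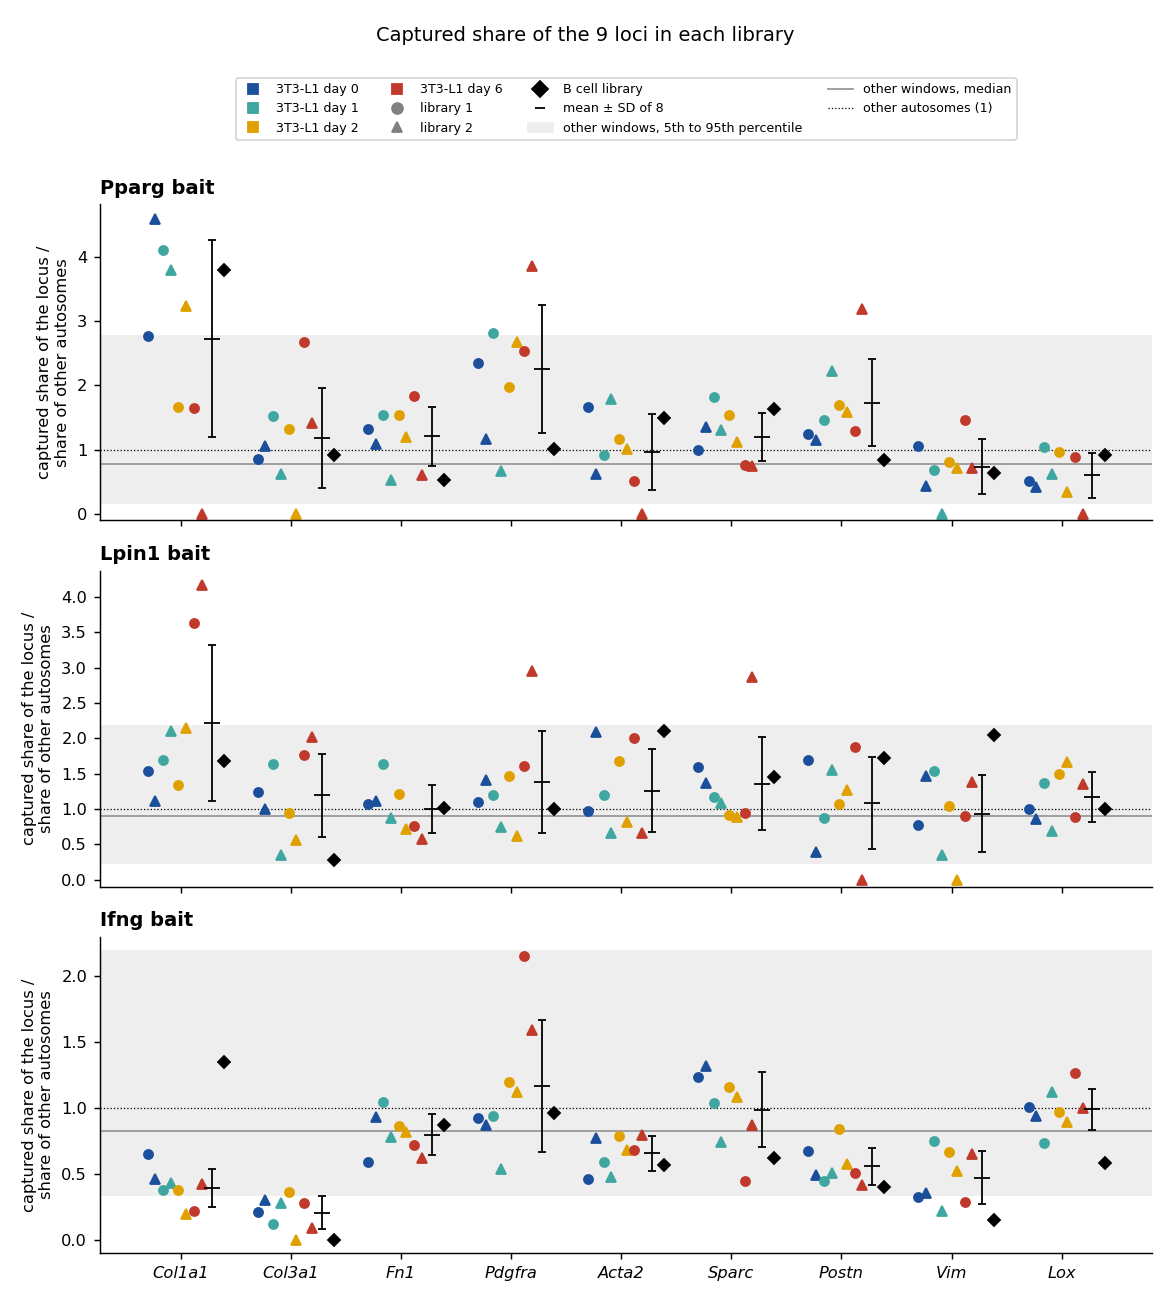
Relative capture (captured share of each locus over that of other autosomes) for the 9 loci, 1 panel per bait. Points are libraries coloured by day, diamonds are the B cell library, bars give mean ± SD of the 8 3T3-L1 libraries, and the grey band spans the 5th to 95th percentile of other 1 Mb windows. Col1a1 lies high with Pparg (mean 2.72) and Lpin1 (2.22) and low with Ifng (0.390), and Col3a1 is lowest with Ifng (0.205).

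Counted over all libraries, 1 of the 9 loci (Postn) lay above 1 in all 8 3T3-L1 libraries with the Pparg bait, where 12.4% of all windows did, and 1 (Col1a1) with the Lpin1 bait, where 10.7% did. With the Ifng bait the count was 0, where 14.1% of windows did. Below 1 in all 8 libraries were 0 loci with Pparg (30.5% of windows), 0 with Lpin1 (25.1%) and 5 with Ifng (36.5%), namely Col1a1, Col3a1, Acta2, Postn and Vim. The median of the 9 means was 1.20 for Pparg, 1.19 for Lpin1 and 0.653 for Ifng, beside window medians of 0.771, 0.898 and 0.820. With the libraries numbered 1 alone the means of Col1a1 were 2.55, 2.05 and 0.404 for Pparg, Lpin1 and Ifng, and those of Col3a1 were 1.59, 1.40 and 0.244. With the libraries numbered 2 alone they were 2.90, 2.38 and 0.376 for Col1a1, and 0.770, 0.982 and 0.167 for Col3a1. Fn1 with Pparg stood at 1.56 and 0.853 in the libraries numbered 1 and 2. With the Pparg bait all loci but Col1a1 and Postn were lower in the libraries numbered 2.

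Each locus was next compared with its own flanks, from 0.5 to 2 Mb on either side, which asks whether capture peaks near the gene or covers a wider region. The Pparg bait captured 4 loci more often than their flanks: Fn1, Col3a1, Col1a1 and Pdgfra. Of the 1576 windows tested, which held a mean of at least 3 captured sites, 18% were called higher in this way. Another 14% were called lower, where no locus was. Without that filter, which leaves out windows of low capture, 285 of 2164 windows were called higher and 424 lower. Among the 4 loci Fn1 differed most, by 1.62 ± 0.26 (SE) on the log2 scale, or 3.07-fold. Its adjusted p was 2e-08 in edgeR's quasi-likelihood test (Benjamini-Hochberg over 1576 windows), and its share exceeded that of the flanks in 7 of 8 libraries. Col3a1 stood 0.95 ± 0.24 above its flanks (edgeR adjusted p = 0.000692, 7 of 8 libraries). Col1a1 differed by 0.57 ± 0.23 (edgeR adjusted p = 0.046) and Pdgfra by 0.46 ± 0.17 (edgeR adjusted p = 0.0292), each in 6 of 8 libraries. The 4 calls were also made without the Pparg libraries numbered 2, with the days then taken as 1 group; Fn1 was at 1.80 and Col1a1 at 0.68. When single libraries were left out, Fn1 lost its call without the day 1 or the day 6 library numbered 1 (1.13 and 1.34, adjusted p = 0.231 and 0.167). Col3a1 lost its call without the day 1, day 2 or day 6 library numbered 1 (0.91, -0.35 and 0.74). Col1a1 lost its call without any of 6 libraries, the day 6 library numbered 1 (-0.37), either day 1 library, either day 2 library or the day 0 library numbered 2. Pdgfra lost its call without any of the libraries numbered 1 or the day 6 library numbered 2 (lowest -0.02). Where the sign turned, the remaining library of that day held 0 or 1 captured site at the locus. Counting reads in place of sites left 0 of the 4 calls, and flanks of 0.5 to 1 Mb left Col3a1 and Fn1.

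With the Lpin1 bait 2 loci exceeded their flanks, where 15.9% of the 1795 tested windows did. These were Fn1, by 0.93 ± 0.32 (edgeR adjusted p = 0.0206), and Col1a1, by 0.82 ± 0.25 (edgeR adjusted p = 0.00921), each in 8 of 8 libraries. None was lower, where 12.2% of tested windows were. Without the filter on captured sites, 297 of 2204 windows were called higher and 419 lower. Without the day 1 and day 2 libraries numbered 2 Col1a1 stood at 0.66 (adjusted p = 0.0747) and was not called, while Fn1 was. Col1a1 also lost its call without the day 0 or the day 6 library numbered 1 (adjusted p = 0.0614 and 0.0657). Fn1 lost its call without any of 5 libraries, both day 6 libraries, the day 1 and day 2 libraries numbered 1 and the day 0 library numbered 2 (adjusted p up to 0.193). Flanks of 0.5 to 1 Mb, and reads in place of captured sites, each left 0 calls.

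The Ifng bait gave differences in both directions. Col1a1 stood 1.79 ± 0.22 below its flanks on the log2 scale, with the flanks 3.47 times as high (edgeR adjusted p = 1.06e-11, over 2154 windows), and lay below them in 8 of 8 libraries. Col3a1 was lower by 0.98 ± 0.30 (edgeR adjusted p = 0.00406) and Acta2 by 0.69 ± 0.17 (edgeR adjusted p = 0.000469), both in 8 of 8 libraries. Of the tested windows 25.3% were called lower and 20.6% higher. Lox lay above its flanks by 0.46 ± 0.16 (edgeR adjusted p = 0.0178, 8 of 8 libraries) and Sparc by 0.46 ± 0.17 (edgeR adjusted p = 0.0338, 6 of 8). With flanks of 0.5 to 1 Mb, Col1a1 differed by -0.76 (adjusted p = 0.0518) and Col3a1 by -0.30 (adjusted p = 0.641), and neither was called. No single library decided the calls of Col1a1 and Acta2. Acta2 was not called with 250 kb on each side (-0.39, adjusted p = 0.172), with at least 2 reads per captured site (-0.59, adjusted p = 0.182) or after thinning (-0.51, adjusted p = 0.0647). Lox stood at 0.12 with 250 kb or 1 Mb on each side, and Sparc at 0.23 with 1 Mb, and neither was called. Col3a1 was called in the 5 fits without 1 library that left it enough captured sites to be tested. Lox lost its call without the day 1 library numbered 2 or the day 2 or day 6 library numbered 1 (lowest 0.40), and Sparc without any of 5 libraries, both day 1 libraries, the day 0 and day 6 libraries numbered 2 and the day 2 library numbered 1 (lowest 0.27).

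**Figure D2:**
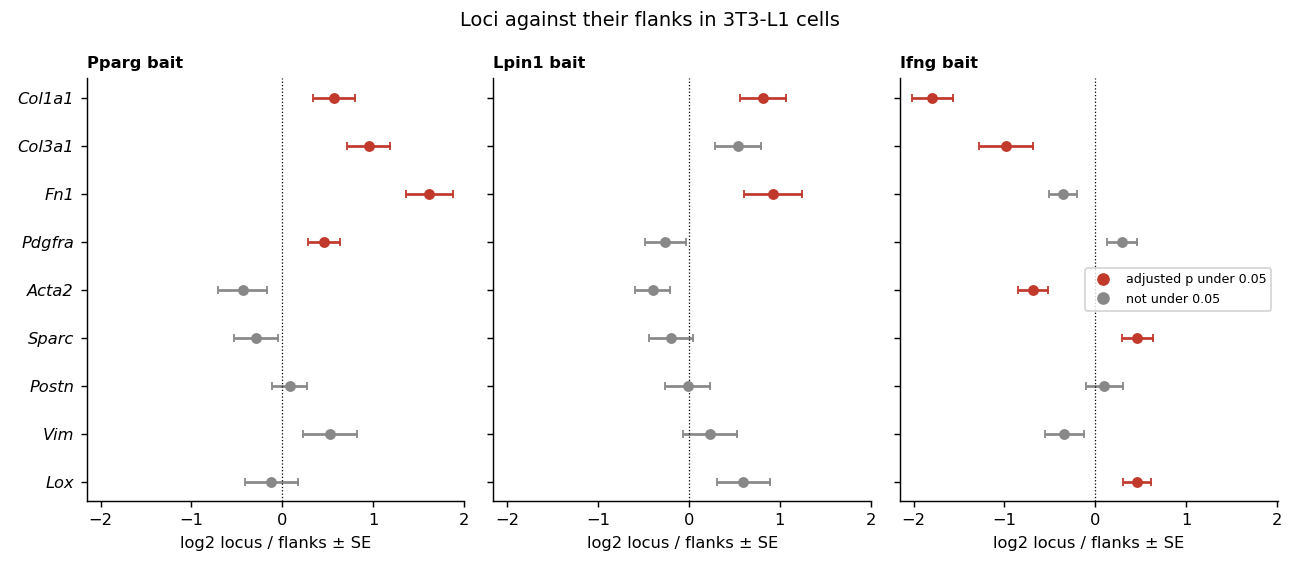
Captured share of each locus against its flanks from 0.5 to 2 Mb in 3T3-L1 cells, as log2 ratio ± SE of the edgeR fit, 1 panel per bait. Red points have an adjusted p under 0.05. Fn1 lies furthest right with the Pparg bait (1.62), and Col1a1 furthest left with the Ifng bait (-1.79).

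Bins of 250 kb, with the 8 libraries of each bait summed so that deeper libraries weigh more, describe where these differences lay. Low bins rest on few captured sites. The whole Col1a1 locus held only 32 over the 8 Ifng libraries. Around Fn1 the Pparg bait reached 2.60 in the bin from 0.25 to 0.5 Mb above the gene position, and the Lpin1 bait 2.11, while the bins beyond 0.5 Mb on the lower side were at or under 0.442 for Pparg. The Ifng bait showed 0.257 and 0.377 in the 2 bins above the gene position and 1.67 at 0.5 to 0.75 Mb below it. At Col1a1 the Pparg bait stayed between 2.18 and 2.69 from 0.25 to 2 Mb above the gene and was at or under 0.832 more than 0.75 Mb below it. There the Ifng bait was highest, at 3.24 in the bin from 1.5 to 1.75 Mb below the gene, and it was lowest, at 0.116, in the bin just below the gene position. With the Pparg bait every bin from 0.75 Mb below to 2 Mb above the Col1a1 position was above 1, with the highest, 4.44, just above it. Around Col3a1 the Pparg bait was at 1.75 just above the gene position and between 0.174 and 0.529 in all bins beyond 0.5 Mb above it. Around Pdgfra its highest bin, 3.80, lay 0.25 to 0.5 Mb below the gene position.

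**Figure D3:**
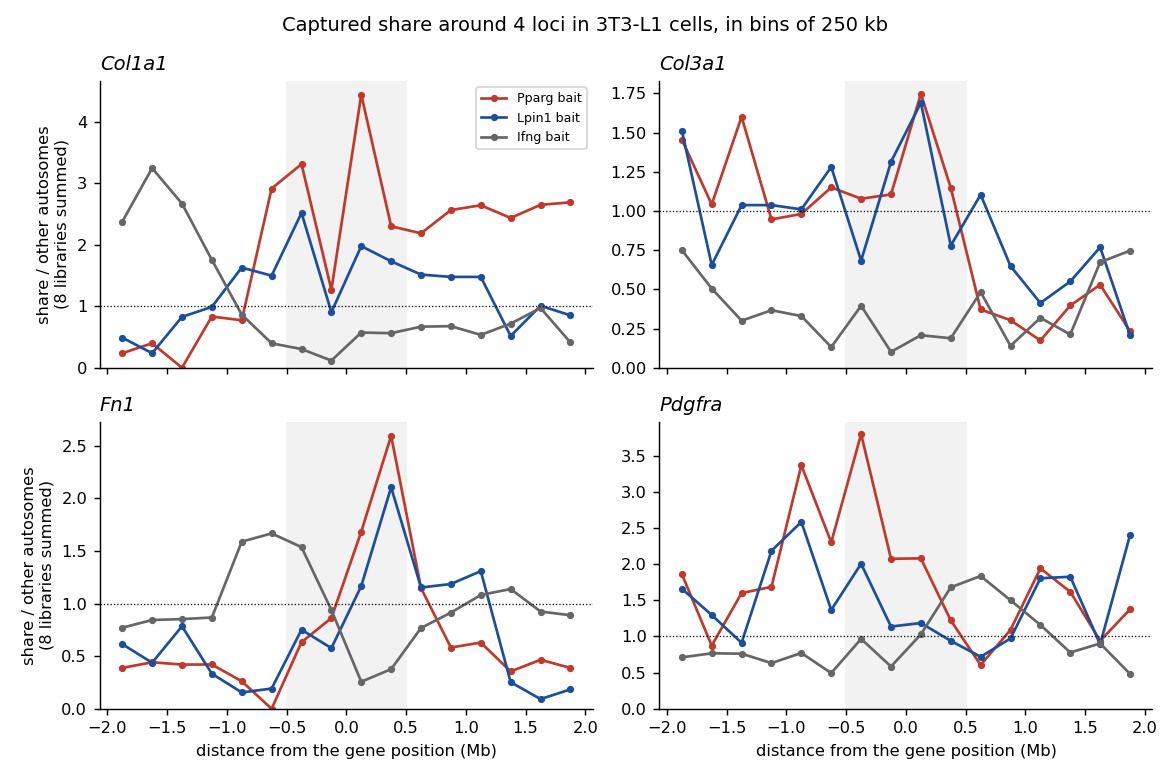
Relative capture in bins of 250 kb up to 2 Mb on each side of 4 gene positions, with the 8 3T3-L1 libraries of each bait summed (lines by bait; grey marks the locus). The Pparg and Lpin1 lines are highest 0.25 to 0.5 Mb above Fn1 (2.60 and 2.11), and the Ifng line is lowest in the bin before it (0.257).

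The baits were then set against each other in 3T3-L1 cells, in 1 fit over 1895 windows on chromosomes without a bait. Col3a1 and Col1a1 differed most. The Pparg bait captured Col3a1 5.85 times as often as the Ifng bait, with a log2 ratio of 2.55 ± 0.33 (edgeR adjusted p = 1.93e-13). It captured Col1a1 5.67 times as often, with a log2 ratio of 2.50 ± 0.36 (edgeR adjusted p = 3.91e-11). Postn was higher by 1.39 ± 0.25 (edgeR adjusted p = 1.4e-07), Pdgfra by 1.06 ± 0.21 (edgeR adjusted p = 2.1e-06), Vim by 0.84 ± 0.32 (edgeR adjusted p = 0.0145) and Fn1 by 0.80 ± 0.23 (edgeR adjusted p = 0.000882). That made 6 of 9 loci higher with Pparg, where 34.1% of the tested windows were, and 0 lower, where 40.5% were. The median log2 difference was 0.84 over the loci and -0.23 over the windows. All 6 were called without the Pparg libraries numbered 2. Vim was not called with DESeq2 (0.77, adjusted p = 0.105), with 250 kb on each side (0.29) or with 1 Mb (0.44), and with 1 Mb Fn1 stood at -0.02. Of single libraries numbered 1 of the Pparg bait, leaving out day 1 ended the calls of Pdgfra (0.40), Fn1 (0.26) and Vim (-0.61). Leaving out day 2 ended those of Col3a1 (0.99 ± 14.8) and Vim (0.77). Without that of day 6 the calls of Col1a1 (0.96 ± 17.6), Fn1 (0.30) and Vim (0.46) were lost. For Vim at day 1, Col3a1 at day 2 and Col1a1 at day 6, the remaining Pparg library of that day held 0 captured sites at the locus. With standard errors that large, the fits for Col3a1 and Col1a1 could not decide whether these calls rest on 1 library. Vim also lost its call without the Pparg day 0 library numbered 1 (0.47) or the Ifng day 1 library numbered 2 (0.62). Only Pdgfra, Postn and Lox kept enough captured sites to be tested when all libraries were thinned to the shallowest, and Pdgfra (-0.06) and Postn (0.39) were not called while Lox was lower with Pparg (-1.28, edgeR adjusted p = 0.019).

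The Lpin1 bait captured 5 of 9 loci more often than the Ifng bait, where 31.8% of windows were higher and 36.5% lower, and 0 loci were lower. Col3a1 differed by 2.32 ± 0.36 (edgeR adjusted p = 2.08e-09) and Col1a1 by 2.11 ± 0.33 (edgeR adjusted p = 4.41e-09), and both were called in every fit that left out 1 library. Vim was higher by 1.02 ± 0.34 (edgeR adjusted p = 0.00478), Acta2 by 0.94 ± 0.28 (edgeR adjusted p = 0.00147) and Postn by 0.89 ± 0.29 (edgeR adjusted p = 0.00429). The median of the loci was 0.89, against -0.15 for the windows. Vim lost its call without the Lpin1 day 1 or day 2 library numbered 1 (0.51 and -0.42), Acta2 without the Lpin1 day 1, day 2 or day 6 library numbered 1 (0.71, 0.72 and 0.51), and Postn without that of day 0 or day 6 (0.46 and -0.80). Where the sign turned, the remaining Lpin1 library of that day held 0 captured sites at the locus. All 5 were called without the Lpin1 day 1 and day 2 libraries numbered 2. With 250 kb on each side Postn (0.71, adjusted p = 0.181) and Vim (0.17, adjusted p = 0.78) were not called, and with at least 2 reads per captured site Postn was not (0.70, adjusted p = 0.115).

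Between the Pparg and Lpin1 baits, 1 locus differed. Pdgfra was captured 1.80 times as often with Pparg, 0.85 ± 0.25 on the log2 scale (edgeR adjusted p = 0.0102), where 10.2% of windows were higher and 4.54% lower. That call was lost with DESeq2 (adjusted p = 0.0785), with a locus of 250 kb on each side, with at least 2 reads per captured site, with reads in place of sites, after thinning, and without the Pparg day 0, day 1 or day 6 library or the Lpin1 day 6 library numbered 1 (lowest 0.25). Scaling to total captured sites in place of edgeR's factors moved the median of all windows from 0.02 to -0.11 and the split of called windows from 194 higher and 86 lower to 148 and 142, and Pdgfra kept its direction at 0.72. For Col1a1 the difference between these baits was 0.39 with a 95% interval of -0.16 to 0.95, and for Col3a1 it was 0.23 with an interval of -0.32 to 0.78. The comparisons of baits share libraries, so they are not independent of each other.

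**Figure D4:**
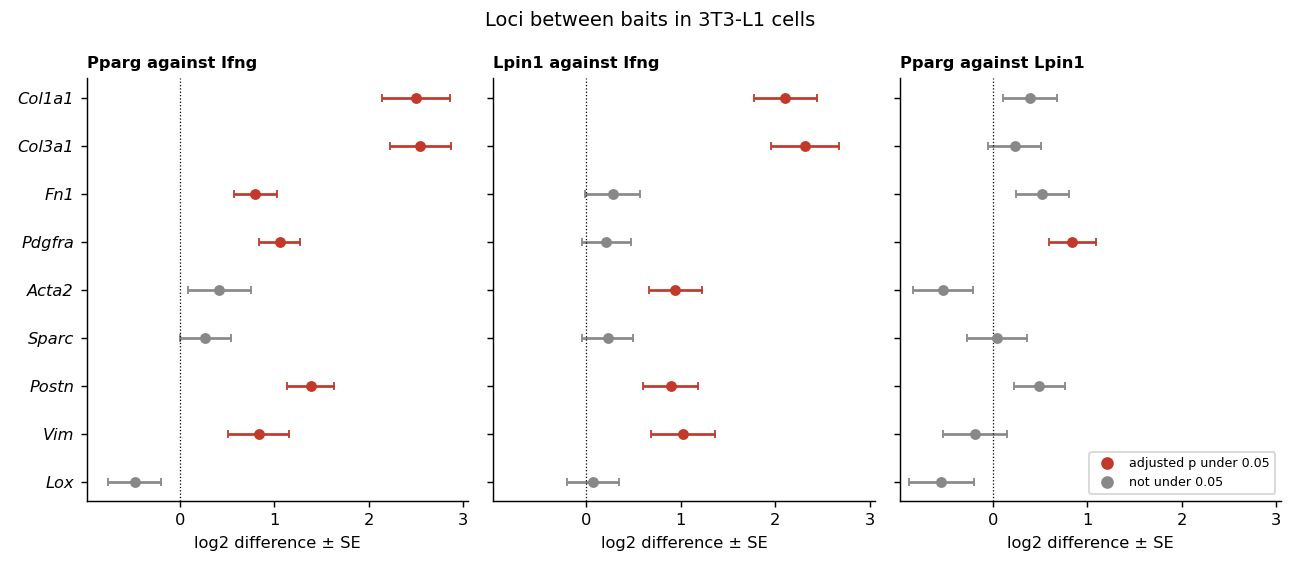
Log2 differences ± SE in capture of the 9 loci between baits in 3T3-L1 cells, from 1 edgeR fit. Red points have an adjusted p under 0.05. Col1a1 and Col3a1 lie between 2.11 and 2.55 in both comparisons with the Ifng bait and near 0 between Pparg and Lpin1 (0.39 and 0.23).

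Days of differentiation were compared with day 0 to ask whether capture of these loci moved as the cells left the preadipocyte state. No locus was called at day 1, 2 or 6 with any bait by edgeR or by DESeq2. Windows called were few as well: 0, 0.0635 and 0.127% at days 1, 2 and 6 with Pparg, and 0% in every comparison with Lpin1 and Ifng. At an unadjusted p under 0.05 edgeR gave 0, 1 and 3 loci at days 1, 2 and 6 with Pparg, 0, 0 and 1 with Lpin1 and 0, 0 and 1 with Ifng. Of all tested windows, 5.71, 8.69 and 11.2% did so with Pparg, 5.35, 5.79 and 7.58% with Lpin1 and 3.95, 4.27 and 5.29% with Ifng. With 2 libraries a day these comparisons leave wide intervals.

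At day 6 the locus nearest to the threshold with the Pparg bait was Col3a1. It had 0.855 and 1.06 at day 0 and 2.67 and 1.41 at day 6, a log2 ratio of 1.30 ± 0.53 (edgeR adjusted p = 0.282). Its libraries of these days did not overlap, and held 10 and 5 captured sites there at day 0 and 15 and 2 at day 6. With the Lpin1 bait it was Col1a1, with 1.54 and 1.11 at day 0 and 3.64 and 4.17 at day 6, which differed by 1.36 ± 0.58 (edgeR adjusted p = 0.546), again without overlap. The locus held 8 and 5 captured sites at day 0 and 8 and 4 at day 6. Over other autosomes those libraries captured 2.50 and 2.17% of sites at day 0, and 1.06 and 0.462% at day 6. With the Ifng bait Pdgfra had 0.925 and 0.868 at day 0 and 2.15 and 1.59 at day 6, a difference of 1.02 ± 0.36 (edgeR adjusted p = 0.718). It held 16 and 16 captured sites at day 0 and 14 and 16 at day 6, in libraries with 5.91 and 6.29%, then 2.22 and 3.43% of other sites captured. None of these 3 differences passed the test. Col1a1 with the Pparg bait had 2.77 and 4.58 at day 0, 4.10 and 3.79 at day 1, 1.67 and 3.23 at day 2, and 1.65 and 0 at day 6, the last of these from the shallow library described above.

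At day 1 the smallest p belonged to Lox with Pparg (0.99 ± 0.68, edgeR adjusted p = 0.947), Acta2 with Lpin1 (-0.51 ± 0.52, edgeR adjusted p = 0.949) and Sparc with Ifng (-0.58 ± 0.38, edgeR adjusted p = 0.997). At day 2 it belonged to Col1a1 with Pparg (-0.83 ± 0.39, edgeR adjusted p = 0.523), Lox with Lpin1 (0.70 ± 0.46, edgeR adjusted p = 0.882) and Vim with Ifng (0.80 ± 0.45, edgeR adjusted p = 0.983). The difference between locus and flanks was tested between day 6 and day 0 as well, with 0 loci called by edgeR in each bait and 0, 0.0557 and 0% of windows with Pparg, Lpin1 and Ifng. At an unadjusted p under 0.05 there were 1, 0 and 2 loci, beside 5.01, 6.57 and 3.44% of windows. The nearest was Sparc with the Ifng bait, whose difference from its flanks was lower at day 6 by 1.87 ± 0.47 (edgeR adjusted p = 0.612). With Pparg it was Acta2 (-1.81 ± 0.87, edgeR adjusted p = 0.925) and with Lpin1 Col3a1 (0.88 ± 0.74, edgeR adjusted p = 0.925).

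**Figure D5:**
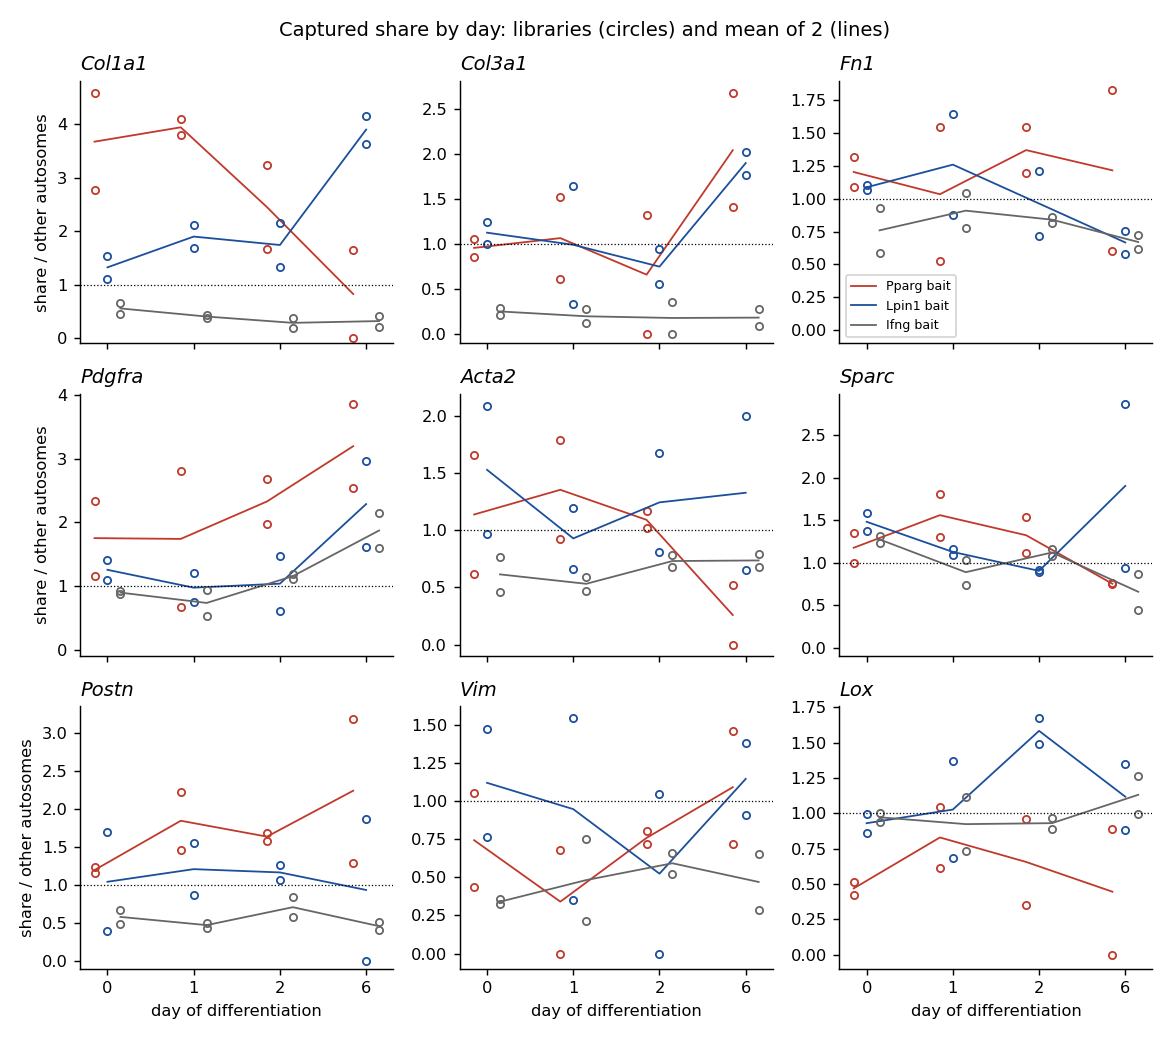
Relative capture of each locus by day in 3T3-L1 cells (circles are libraries, lines join the mean of 2 per day, colours mark baits; days are evenly spaced on the axis). Col1a1 with the Lpin1 bait lies at 3.64 and 4.17 on day 6 (8 and 4 captured sites) against 1.54 and 1.11 on day 0 (8 and 5 captured sites), a difference that did not pass the test.

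The B cell line, a lymphoid line in which fibroblast genes serve as a contrast, had 1 library per bait. With the Pparg bait Col1a1 had a relative capture of 3.79 there from 8 captured sites (95% interval 1.65 to 7.33, exact binomial, counting error only), within the range of the 3T3-L1 libraries. Postn lay below all 8 with that bait, at 0.835 from 3 captured sites. Fn1, at 0.5256 from 2 captured sites, was level with the lowest 3T3-L1 library (0.5259 from 1 captured site). With the Lpin1 bait Col1a1 was at 1.68, Acta2 at 2.11 and Vim at 2.05, and both Acta2 and Vim lay above all 8 3T3-L1 libraries. Col3a1 with the Lpin1 bait was at 0.272 from 3 captured sites, below all 8. With the Ifng bait Col1a1 was at 1.35 from 6 captured sites (interval 0.498 to 2.88), above all 8 3T3-L1 libraries, while Col3a1 had 0 of 321 sites captured, which allows a relative capture of up to 0.436, above the 3T3-L1 mean. Postn, Vim and Lox lay below all 8 with the Ifng bait, but from only 3, 1 and 4 captured sites.

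No locus was called between B cells and 3T3-L1 by edgeR or DESeq2, where edgeR called 0.0635% of windows with Pparg, 0.557% with Lpin1 and 3.44% with Ifng. At an unadjusted p under 0.05 edgeR gave 0, 2 and 1 loci of 9, where it gave 10.8, 14.8 and 16.4% of windows. The smallest p belonged to Fn1 with Pparg (-1.38 ± 0.88, edgeR adjusted p = 0.556), Col3a1 with Lpin1 (-2.06 ± 0.68, edgeR adjusted p = 0.106) and Col1a1 with Ifng (1.73 ± 0.72, edgeR adjusted p = 0.197). The spread of the lone B cell library was assumed to equal that of the 3T3-L1 libraries. Against their flanks, the loci differed between the lines in 0 cases by edgeR with each bait, where 0, 0 and 0.0464% of windows did with Pparg, Lpin1 and Ifng, and at an unadjusted p under 0.05 there were 0, 1 and 2 loci, beside 6.79, 6.91 and 10.6% of windows. Nearest were Sparc with Pparg (1.35 ± 0.93, edgeR adjusted p = 0.767), Col3a1 with Lpin1 (-2.60 ± 0.73, edgeR adjusted p = 0.42) and Col1a1 with Ifng (1.85 ± 0.76, edgeR adjusted p = 0.326).

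Few single sites recurred. With the Ifng bait 17 of the 2818 sites were captured in at least 5 of the 9 libraries, or 0.603%, against 1.10% of other sites. Pdgfra held 6 of these, among them chr5:75114068-75114073 in 7 libraries, all of 3T3-L1, and chr5:75558946-75558951, 8.95 kb from the gene position, in 5 3T3-L1 libraries and the B cell library, and also in 4 libraries of the other baits. With the Lpin1 bait 2 sites recurred, 1 of them in the Acta2 locus at chr19:34355185-34355190 in 6 libraries, with up to 458 reads in 3T3-L1 and 40 in B cells. They made up 0.0710% of the loci's sites, against 0.0806% elsewhere. With the Pparg bait a single site recurred, in the Col1a1 locus at chr11:94850681-94850686. It was captured in 5 3T3-L1 libraries and the B cell library, and also in 1 library of the other baits. This made 0.0355% of the loci's sites, against 0.0295% elsewhere. The part in it of the sites shared between the Pparg B cell library and those numbered 2 was not tested. Across the 15 samples the locus most like Col3a1 was Postn and the one most like Acta2 was Sparc, both with Pearson r = 0.719 of log2 relative capture. These samples span 3 baits and differ in depth, so the correlations are given as descriptions.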

How the data were processed

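The authors deposited 1 file of read counts per HindIII site for each of 27 4C-seq libraries, with no normalization. Per the submitters' processing notes, reads were aligned to mm9 with Bowtie, whose version is not given in the sources used here. Library numbers come from the deposited file names. Gene positions were given with the list of loci, and neighbouring genes were named from RefSeq gene tables of GRCm38.p6, without their coordinates. The 9 loci, and the tests, were chosen with earlier results of these data known.

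Windows on the bait's chromosome were left out of its tests, and sites within 10 kb of a bait were left out when libraries were thinned. Captured sites (1 read or more) were summed per locus and in the other 1 Mb windows of autosomes with at least 100 sites, which served as background. Tests used edgeR 4.0.16 (R 4.3.3), with quasi-likelihood fits, TMM factors and a group per bait, day and line, on windows holding a mean of at least 3 captured sites per library. Means over 3T3-L1 weighted the 4 days equally on the log scale. The locus was set against its flanks with the library as a block and the number of sites as offset. DESeq2 1.42.0 was an alternative, and intervals of shares were exact binomial from SciPy 1.17.1. All 9 loci are named; where any passed a test, each passing locus is given, and otherwise the one with the smallest p. Library totals, which include reads at the bait, ranged from 116031 to 3002206 reads. Since the labels name no molecular identifiers, reads were not taken as independent molecules.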

Additional observations from a re-analysis of the deposited data

Results flagged for a closer look

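Over 27 sets of 8 3T3-L1 libraries (9 loci with 3 baits), 2 held a library far from the other 7 by Dixon's test, which marks about 1 in 20 sets by chance. Both came from the Lpin1 day 6 library numbered 2, which had the fewest captured sites of the Lpin1 libraries (3376). Pdgfra stood at a relative capture of 2.96 there, and Sparc at 2.87, each from only 4 captured sites.

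For Col1a1 the difference between day 6 and day 0 had opposite signs between baits, and the measured values of these days did not overlap within any bait. The difference in mean relative capture was -2.85 with the Pparg bait, -0.237 with the Ifng bait and 2.58 with the Lpin1 bait. The Pparg value rests in part on the day 6 library with 0 captured sites, whose limit of 3.26 lies above the day 0 value of 2.77. Vim in B cells lay above all 8 3T3-L1 libraries with the Lpin1 bait (difference of means 1.11, 22 captured sites) and below all 8 with the Ifng bait (-0.322, from 1 captured site). These differences between baits were not tested, and within each bait the locus did not pass its own test.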

How the results depend on the processing

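The 9 mean levels of each bait stayed within 1 SD in 178 of 189 alternatives other than leaving out 1 library. Leaving out 1 of 8 libraries cannot move their mean by as much as their SD, so that check could not fail and is not counted. Of the counts of called loci, 236 of 255 without 1 library and 199 of 232 others stayed within 1.5 times. Most of these counts were 0 in the main fit, and a count can stay level while its loci change. They therefore do not measure how firm single calls were. The alternatives without the Lpin1 day 1 and day 2 libraries numbered 2, without the Pparg libraries numbered 2, and with libraries numbered 1 only were chosen after seeing the data. Where no cause is given it was not tested. Of the levels that moved beyond 1 SD, those that moved by over 1.5 times were Col1a1 with Ifng (0.239 with at least 2 reads per captured site and 0.243 with reads) and Fn1 with Ifng (0.499 with at least 2 reads). Against flanks, the Pparg count of 4 was 2 with 250 kb on each side, with at least 2 reads per captured site or with flanks of 0.5 to 1 Mb (Col3a1 and Fn1 in each), 1 after thinning (Col3a1) and 0 with reads in place of sites. The Lpin1 count of 2 (Col1a1 and Fn1) was 1 with 250 kb (Col3a1, with Col1a1 and Fn1 holding too few sites to be tested), with at least 2 reads (Col1a1) or without the day 1 and day 2 libraries numbered 2 (Fn1), and 0 with reads or with flanks of 0.5 to 1 Mb. It was 5 with 1 Mb (Col1a1, Col3a1 and Lox higher, Acta2 and Postn lower) and 5 with flanks of 0.5 to 5 Mb (Col1a1, Col3a1, Fn1 and Pdgfra higher, Acta2 lower). The Ifng count of 5 was 2 with 250 kb (Sparc, and Fn1 lower), 1 with at least 2 reads (Fn1 lower) and 1 after thinning (Sparc), where Col1a1 and Col3a1 held too few sites to be tested, and 3 with flanks of 0.5 to 1 Mb (Acta2 and Fn1 lower, Lox higher). Fn1 is not among the 5. Against flanks, some calls were also lost where the count stayed within 1.5 times. Col3a1 with Pparg was not called with 1 Mb on each side (0.38, edgeR adjusted p = 0.20). Fn1 with Lpin1 was not called after thinning (0.90, edgeR adjusted p = 0.0598). With the Ifng bait and reads in place of sites, Sparc (0.56, edgeR adjusted p = 0.122) and Lox (0.28, edgeR adjusted p = 0.448) were not called. The count of 6 for Pparg against Ifng was 3 with reads (Col1a1, Col3a1 and Pdgfra) and 1 after thinning (Lox lower), the 5 for Lpin1 against Ifng were 3 with 250 kb (Col1a1, Col3a1 and Acta2), 2 with reads (Col1a1 and Col3a1) and 0 after thinning, which left 3 loci to test, and the 1 for Pparg against Lpin1 was 4 with 1 Mb (Pdgfra and Postn higher, Acta2 and Lox lower) and 0 with DESeq2, 250 kb, at least 2 reads, reads or thinning. In B cells against 3T3-L1, 0 calls became 1 with at least 2 reads for Lpin1 (Col3a1) and 1 with reads for Ifng (Col1a1), and likewise 1 and 1 for the difference from flanks. Signs turned for Fn1 with Pparg in B cells (0.084, thinned), Lox with Lpin1 at day 2 (-0.30, reads), Col3a1 with Lpin1 against flanks at day 6 (-1.17, reads), and, for Pparg against Ifng, Fn1 (-0.022, 1 Mb) and Pdgfra (-0.057, thinned). Leaving out 1 library gave 0 to 4 calls for Pparg against flanks, 0 to 2 for Lpin1, 2 to 5 for Ifng, 3 to 5 for Lpin1 against Ifng, 0 to 1 for Pparg against Lpin1 and 0 to 1 for Lpin1 in B cells. It moved Col1a1 (-0.37 to 0.70), Col3a1 (-0.35 to 0.99) and Pdgfra (-0.02 to 0.53) against flanks with Pparg, Acta2 with Lpin1 at day 1 (-1.19 to 0.090), Vim for Pparg against Ifng (-0.61 to 1.07), and Postn (-0.80 to 1.05) and Vim (-0.42 to 1.26) for Lpin1 against Ifng. The library numbers were not taken to pair the days, since the labels give none and not every pair of days had a correlation over 0.1 (4 of 6 for Pparg, 1 of 6 for Lpin1, 2 of 6 for Ifng), although the Pparg libraries numbered 2 share sites. Deviations of same-numbered libraries from their day means correlated between 0.068 and 0.142 with the Pparg bait, between -0.019 and 0.30 with Lpin1 and between 0.006 and 0.204 with Ifng. With the number as a replicate block the count against flanks was 2 for Pparg (Col1a1 and Fn1) and that of Pparg against Lpin1 was 0. The block also ended the calls of Fn1 (0.43, adjusted p = 0.149) and Vim (0.32, 0.494) for Pparg against Ifng and of Postn (0.65, 0.0512) for Lpin1 against Ifng. Depth limits the Pparg libraries numbered 2 most, with 0.443 to 1.47% of sites captured.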
